A study of Glycine max with 9 samples.

Results

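Transcript assembly of soybean root-tip reads produced loci whose rows carry no gene name. In the deposited table they have an assembly identifier (MSTRG and a number) and a dot in place of the gene name on every row. There were 4236 such identifiers with 4443 transcripts among 62645 identifiers in all. The 1279 loci with 1478 transcripts described here had an FPKM of 1 or more in 3 or more of the 9 libraries. FPKM is the fragment count scaled by transcript length and by the total of the library. In 2 of them the span held an annotated row that also lacked a gene name.

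*Glycine max* cv. Williams 82 plants grew in half-strength Hoagland solution, and sucrose was added to the roots to imitate the sugar signal that shoots send under nutrient deficiency. The root ends were taken without sucrose (t0, libraries 1 to 3) or with 10 mM sucrose for 20 min (t20, libraries 4 to 6) or 40 min (t40, libraries 7 to 9). Each time had 3 libraries from separate plants of the same cultivar, without a mock addition at 20 or 40 min. The root gene IFS1, an isoflavone synthase, lay between 184 and 294 FPKM in all libraries, its relative IFS2 between 12.3 and 22.9 FPKM at t0 and between 135 and 220.5 at t40, and 3 of the 4 leghemoglobin genes found were listed at 0 throughout. Of the leaf genes, rbcL stayed at or below 1.83 FPKM, while CAB3, a chlorophyll-binding protein gene, ran from 16.8 to 335 FPKM with its highest value in library 6.

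An assembler such as StringTie joins overlapping alignments into transcripts and keeps those outside the annotation as loci of their own. Loci of this kind can be long noncoding RNAs, antisense RNAs copied from the strand opposite a gene, the far ends of messenger RNAs whose annotated 3′ end is too short, primary transcripts of microRNAs and small nucleolar RNAs, or protein-coding genes that annotation missed. Long noncoding RNAs of plants tend to have few exons and low, condition-dependent levels. The libraries came from a stranded messenger RNA kit, which selects polyadenylated RNA and keeps the strand, and every locus had a strand in the table (655 plus, 624 minus). Genome sequence was not used here, so neither bases nor reading frames are given.

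Many FPKM values of single-exon transcripts, multiplied by their length, fell on steps, the step being taken as the worth of 1 fragment. Of the single-exon loci's values above 0, 18.1 to 44.2% per library lay within 0.05 of a whole number of steps. By these steps the libraries held about 23300000, 23300000 and 37300000 fragments at t0, 21800000, 42200000 and 30100000 at t20 and 16600000, 21100000 and 13200000 at t40. A locus of the median length of 805 bases at an FPKM of 1 thus rested on 34.0 fragments in library 5 and on 10.6 fragments in library 9. Low FPKM values were least certain at t40.

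The loci were short, mostly unspliced and weakly expressed. A single exon made up 951 of 1279 loci (74.4%), against 11.0% of the 31484 named genes that passed the same filter. A further 209 loci had 2 exons, 119 had 3 or more and 9 had 10 or more. The median length was 805 bases (range 200 to 6986), against 1845 bases for the named genes. The median of the mean FPKM over 9 libraries was 1.39 (quartiles 0.969 and 2.92), against 7.09 for the named genes. A mean of 10 FPKM or more was reached by 102 loci (7.97%, against 38.7% of named genes) and a mean of at least 100 by 13 loci. They lay on all 20 chromosomes (1260 loci), from 42 on chromosomes 12 and 16 to 90 on chromosome 13, with 8 loci on the mitochondrial genome, 1 on the plastid genome and 10 on scaffolds. Named genes past the same filter likewise ran from 1118 on chromosome 16 to 2204 on chromosome 13.

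More of this transcription was recorded at 40 min. The 1279 loci together held 1.02 ± 0.17% of the summed FPKM at t0 (mean ± SD, n = 3), 1.08 ± 0.14% at t20 and 1.69 ± 0.06% at t40. Per library the share was 1.12, 1.12 and 0.829% at t0, 1.25, 0.999 and 1.00% at t20, and 1.73, 1.73 and 1.62% at t40. All t40 libraries lay above all others. The 10 loci of highest mean took 32.1, 30.3 and 21.2% of the loci's FPKM at t0, 44.1, 29.6 and 28.6% at t20 and 48.1, 46.9 and 41.5% at t40. Their part was larger at t40 than at t0. These 10 were chosen by their mean over all 9 libraries, which favours loci high at t40. How evenly the higher share at t40 was spread over the loci was therefore not decided. Over all 4236 unnamed identifiers, the number at an FPKM of at least 1 was 1101, 1084 and 888 at t0, 897, 841 and 903 at t20, and 2331, 1313 and 1809 at t40. Library 7 stood apart in this count, and libraries 7 and 9 were also the shallowest. Mapping rates per library were not used here. The part of depth and of mapping in the difference was not tested.

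**Figure D1:**
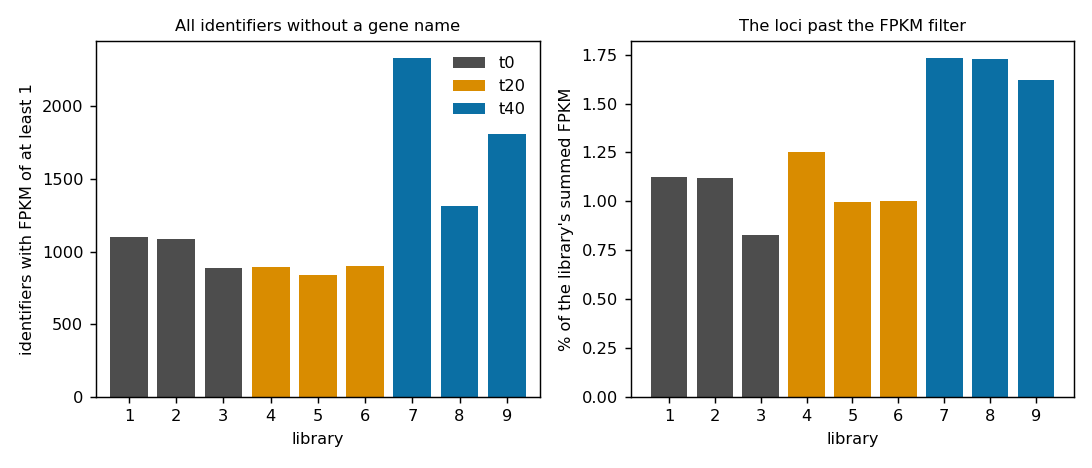
Left, number of all identifiers without a gene name at an FPKM of at least 1 in each library, and right, percent of each library's summed FPKM held by the 1279 loci; bars are single libraries coloured by time. Library 7 has the highest count (2331), and the t40 libraries hold 1.62 to 1.73% of the FPKM against 0.829 to 1.25% in the others.

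The filter let loci in by different routes. An FPKM of at least 1 was seen in every library for 352 loci (27.5%, against 81.8% of named genes). For 46 loci it was reached in t40 libraries only, for 17 in t0 libraries only and for 0 in t20 libraries only. Of the 46 loci, 24 were called higher at 40 min, which their route through the filter favoured. Of the 17 loci, 6 were called lower at 20 min and 9 at 40 min, which their route favoured likewise. Loci that reached 1 in treated libraries of both times but in no t0 library were favoured for a rise in the same way. Counts for the 352 loci are therefore set beside the counts for all loci.

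The most abundant loci were few and of diverse structure. MSTRG.2155 (chr2:3640787-3705615 in Glycine_max_v4.0, minus strand) had the highest mean. Its 2 exons and 986 exonic bases were spread over 64829 bases that held 6 annotated genes whole, 5 of them on the same strand. Its FPKM was 271, 399.9 and 19.7 at t0, 638, 370.3 and 327 at t20 and 714, 719.8 and 612 at t40. The t40 libraries lay above the t0 libraries, but library 3 was far below its group and the log2 FC at 40 min of 2.38 (SE 0.89) did not pass adjustment (limma, Benjamini-Hochberg adjusted p = 0.0772). LOC106795368, a lncRNA inside the span, was listed at 0 in all 9 libraries.

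MSTRG.20341 (chr10:45771690-45772053, minus strand), a single exon of 364 bases, lay inside the 4570-base span of the 2-exon locus MSTRG.20340 (chr10:45771052-45775621, minus strand), and reads may be shared between them. Its FPKM was 302, 234 and 146 at t0, 367, 210.2 and 238 at t20 and 789, 1079 and 629 at t40. It rose at 40 min with a log2 FC of 1.89 (SE 0.33, limma adjusted p = 0.00495). MSTRG.20340 read 364, 524 and 58.9 FPKM at t0, 123, 245 and 58.4 at t20 and 437, 459 and 571 at t40, a log2 FC of 1.11 (SE 0.74) at 40 min that did not pass (limma adjusted p = 0.293). The nearest annotated gene of MSTRG.20341, LOC100782737, lay 11836 bases away.

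MSTRG.20168 (chr10:43929577-43929955, plus strand) had 123, 145 and 208 FPKM at t0, 711, 152 and 139 at t20 and 974, 833 and 500.5 at t40. The t20 libraries were split, with library 4 near the t40 values. The log2 FC at 40 min was 2.25 (SE 0.56, limma adjusted p = 0.0201), and it no longer passed without library 2, 7 or 8 (adjusted p from 0.0548 to 0.0724). LOC100804125, a lncRNA 2650 bases from it on the same strand, rose as well (log2 FC 1.87, limma adjusted p = 0.0230).

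MSTRG.309 (chr1:2601079-2602073, plus strand) lay opposite the protein-coding gene LOC100794187. It had 162, 211 and 209 FPKM at t0, 502, 202 and 215 at t20 and 491, 397 and 378 at t40. The gene opposite stayed between 0.0995 and 2.03 FPKM, so the table assigned almost all signal at this position to the strand without an annotated gene. The rise at 40 min (log2 FC 1.12, SE 0.33, limma adjusted p = 0.0371) was lost without library 1, 2, 3, 7, 8 or 9 (adjusted p from 0.0688 to 0.123).

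The comparison of t40 with t0 asked which loci had changed after 40 min of sucrose. Among the 1279 loci, 157 were upregulated (12.3%) and 52 downregulated (4.07%), at a limma adjusted p under 0.05 and a log2 FC of at least 1 in size. Of all 32763 identifiers tested, 10.5% were called higher and 3.49% lower. The median log2 FC was 0.10 over the loci and 0.06 over all identifiers. Among the 352 loci at an FPKM of at least 1 in every library, 37 were higher (10.5%, against 7.57% of all identifiers under that filter) and 23 lower (6.53%, against 3.76%). Leaving out each library in turn gave 122 to 164 higher and 32 to 55 lower loci, the 32 without library 7. Quantile normalization, which moved the median of all identifiers to -0.11, gave 108 higher and 106 lower loci, so that 50.5% of calls were higher instead of 75.1%. At an unadjusted p under 0.05 there were 184 higher and 58 lower loci (14.4% and 4.53%, against 11.7% and 4.11% of all identifiers).

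The largest rises at 40 min started from low levels. MSTRG.5449 (chr3:42467333-42468087, plus strand, single exon) had 0.0569, 0.0569 and 0.32 FPKM at t0, 11.7, 1.69 and 10.5 at t20 and 22.3, 34.5 and 52.7 at t40. Libraries 1 and 2 held 1 fragment each of it, and libraries 8 and 9 held 550 and 524. Its log2 FC was 4.96 (SE 0.53). It reached an FPKM of 1 in treated libraries only, a route into the filter that favours a called rise, so its values are given as a description. The nearest gene, LOC100802030, was on the other strand 8477 bases away and did not exceed 0.0941 FPKM.

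MSTRG.26587 and MSTRG.26590 lay close together on the minus strand of chromosome 13 (chr13:36400034-36400517 and chr13:36406391-36407195), each downstream of a protein-coding gene on the same strand. MSTRG.26587 had 0.0888, 0 and 0.664 FPKM at t0, 10.5, 1.17 and 7.60 at t20 and 17.1, 16.8 and 25.3 at t40 (log2 FC 4.06, SE 0.52). This locus also reached an FPKM of 1 in treated libraries only, so its rise is a description. MSTRG.26590 had 0.374, 0.213 and 1.70 FPKM at t0, 15.3, 1.81 and 9.59 at t20 and 24.3, 19.7 and 22.0 at t40 (log2 FC 3.80, SE 0.56, limma adjusted p = 0.00227). Both genes rose too. LOC100305673, 2038 bases upstream of MSTRG.26587, had a log2 FC of 3.41 (limma adjusted p = 0.00489) and a Pearson r of 0.96 with it over the 9 libraries. LOC102663141, 2597 bases upstream of MSTRG.26590, had a log2 FC of 2.24 (limma adjusted p = 0.00805) and an r of 0.84 with that locus. With the mean of each time taken off, the r was 0.81 for MSTRG.26587 and 0.27 for MSTRG.26590.

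MSTRG.10934 (chr6:11681768-11682664, plus strand) had 3.07, 1.49 and 4.99 FPKM at t0, 29.3, 4.81 and 28.2 at t20 and 42.6, 52.4 and 87.4 at t40. Its log2 FC at 40 min was 3.91 (SE 0.60, limma adjusted p = 0.00275). MSTRG.10552 (chr6:7878414-7879714, minus strand) had 0.0661, 0 and 0.762 FPKM at t0, 15.7, 1.76 and 7.53 at t20 and 20.4, 8.41 and 21.8 at t40. It rose by a log2 FC of 3.75 (SE 0.59), and as it reached an FPKM of 1 in treated libraries only, this is a description. The nearest genes, lncRNAs 7600 and 6030 bases away on the other strand, were not called at 40 min or did not pass the filter.

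MSTRG.2466 (chr2:7179732-7242295, minus strand) combined a large rise with a high level. Its 3 exons, 359 bases in all, were spread over 62564 bases that held 7 protein-coding genes. It had 74.2, 136 and 22.4 FPKM at t0, 332, 352 and 239 at t20 and 971, 532 and 773 at t40, and the groups followed each other without overlap. The log2 FC was 3.57 at 40 min (SE 0.54, limma adjusted p = 0.00258) and 2.29 at 20 min (SE 0.54, limma adjusted p = 0.0754, not called). LOC102665310, a gene inside the span on the same strand, rose by a log2 FC of 3.87 at 40 min (limma adjusted p = 0.0086). In 5 of these 6 loci library 5 was the lowest of the t20 libraries, and MSTRG.2466 was the exception. Library 5 was also the deepest.

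**Figure D2:**
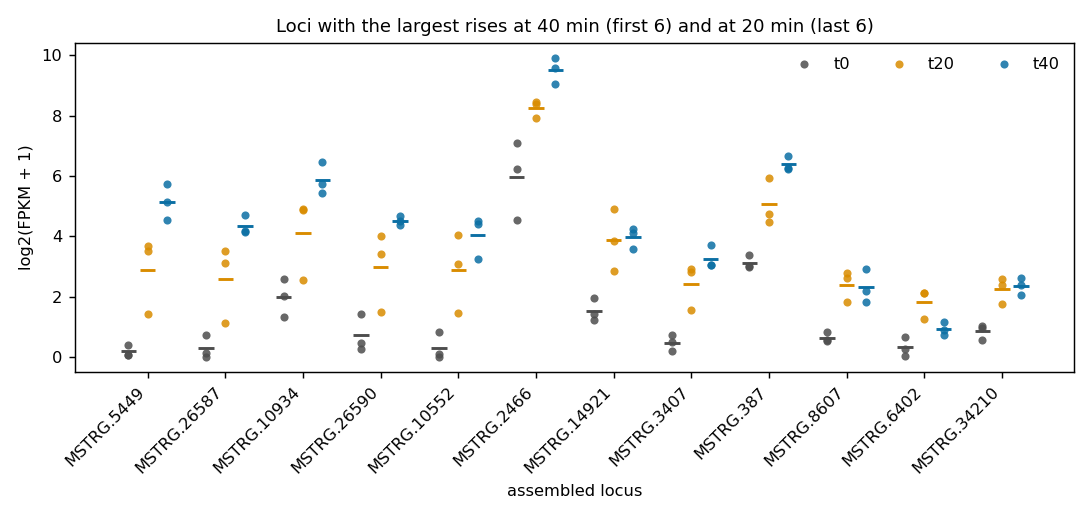
FPKM of the 12 loci with the largest called rises at 40 min or 20 min, on the log2(FPKM + 1) scale; points are single libraries coloured by time and short lines are group means (n = 3). At t40 every point of the first 6 loci lies above the t0 points, and library 5 is the low t20 point of MSTRG.5449, MSTRG.26587, MSTRG.10934, MSTRG.26590 and MSTRG.10552.

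Falls at 40 min were led by MSTRG.33443 (chr17:9216188-9219262, minus strand, 2 exons). It had 34.6, 27.8 and 2.90 FPKM at t0, 0, 0.0784 and 0 at t20 and 0, 1.79 and 0 at t40. Its log2 FC was -3.49 (SE 0.73, limma adjusted p = 0.0103). LOC100794904, 1501 bases away in divergent orientation, had 71.8, 57.8 and 11.8 FPKM at t0, was listed at 0 in all t20 libraries and reached 0.266, 5.61 and 0.592 FPKM at t40. The r between locus and gene over the 9 libraries was 0.98, and the gene's log2 FC at 40 min was -4.00 (limma adjusted p = 0.00495).

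MSTRG.27687 (chr14:2324659-2326027, plus strand, 2 exons) had 14.2, 6.18 and 1.72 FPKM at t0, 0.214, 0.235 and 0.103 at t20 and 0.0939, 0 and 0.118 at t40. It had a log2 FC of -2.64 at 40 min (SE 0.48). The neighbouring gene LOC100793814 ran between 10.0 and 19.8 FPKM, with a log2 FC of -0.09 at 40 min (limma adjusted p = 0.802). MSTRG.1309 (chr1:52901072-52901658, plus strand) had 6.23, 4.42 and 4.02 FPKM at t0, 0, 0.685 and 0.614 at t20, and was listed at 0 in all t40 libraries. At t40, 3 fragments would have been worth at most 0.388 FPKM. Both loci, MSTRG.27687 and MSTRG.1309, reached an FPKM of 1 in t0 libraries only, a route into the filter that favours a called fall, so their values are given as a description.

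MSTRG.8540 (chr5:18488672-18489454, minus strand) lay 16908 bases from the nearest annotated gene, a snoRNA listed at 0. It had 6.63, 14.4 and 9.53 FPKM at t0, 1.26, 4.55 and 2.58 at t20 and 0.571, 0.837 and 0.531 at t40, with no overlap between any of the times. The log2 FC at 40 min was -2.71 (SE 0.34, limma adjusted p = 0.00122).

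In the other named falls at 40 min library 3 was the highest. MSTRG.22200 (chr11:14781818-14782041, plus strand) had 4.25, 6.63 and 28.0 FPKM at t0, 2.47, 4.94 and 6.48 at t20 and 1.18, 0.431 and 1.31 at t40 (log2 FC -2.45, SE 0.55, limma adjusted p = 0.0141). Its t40 values rested on 4.37, 2.04 and 3.85 fragments, and 3 fragments were worth up to 1.02 FPKM there. Without library 3 the log2 FC was -1.71 (adjusted p = 0.0210), and without library 8 the adjusted p was 0.0562. MSTRG.40408, on a scaffold and 1791 bases from an rRNA gene, had 5.44, 10.8 and 42.3 FPKM at t0, 4.61, 9.39 and 12.9 at t20 and 2.75, 1.37 and 1.93 at t40 (log2 FC -2.33, SE 0.60, limma adjusted p = 0.0226). Without library 3 the log2 FC was -1.55 (adjusted p = 0.0418), and without library 7, 8 or 9 the adjusted p was 0.0521 to 0.0787. The rRNA gene LOC112998993 followed it (r 0.95) and was also highest in library 3, at 38.6 FPKM.

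**Figure D3:**
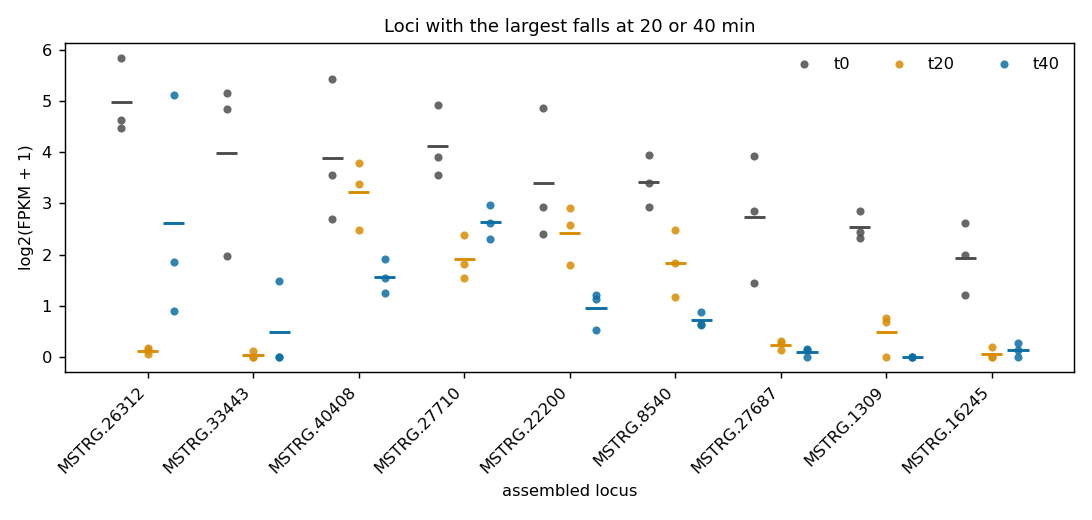
FPKM of the 9 loci with the largest called falls at 20 min or 40 min, on the log2(FPKM + 1) scale; points are single libraries coloured by time and short lines are group means (n = 3). MSTRG.26312 is the locus in which library 8 (33.6 FPKM) returns to the t0 range, and MSTRG.1309 is at 0 in all t40 libraries.

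Some loci were listed at 0 in all t0 libraries, which was the case for 9 of the 1279, all of which had to pass the filter through sucrose-treated libraries. The highest of them at t40 was MSTRG.24541 (chr12:40556598-40557226, plus strand), with 1.64, 0.376 and 3.21 FPKM at t20 and 5.70, 3.59 and 8.72 at t40. A value of 0 at t0 allows up to 3 fragments, which is 0.205 FPKM for this locus in the library where a fragment is worth most. MSTRG.26271 (chr13:33335728-33336655, minus strand) had 0.839, 0.0765 and 1.29 FPKM at t20 and 2.53, 1.96 and 4.84 at t40. MSTRG.27610 (chr14:1611480-1612210, minus strand) had 0.376, 0.130 and 1.13 FPKM at t20 and 1.44, 1.46 and 2.49 at t40. MSTRG.2132 (chr2:3431375-3431865, minus strand) lay within CRK6, a cysteine-rich receptor-like kinase gene, on the same strand. It had 0.999, 0 and 0 FPKM at t20 and 3.73, 1.59 and 1.55 at t40, while CRK6 went from 1.61 to 1.81 FPKM at t0 to 16.8 to 26.2 at t40. These 4 were chosen for being at 0 at t0 and highest at t40, so their rise is a description, and MSTRG.2132 reached an FPKM of 1 in t40 libraries only.

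At 20 min, 7 loci were upregulated (0.547%) and 10 downregulated (0.782%), against 0.766% and 0.156% of all identifiers. Among the 352 loci at an FPKM of at least 1 in every library, 1 was higher and 1 lower (0.284% each, against 0.395% and 0.046% of all identifiers under that filter). Of the 10 lower loci, 6 had reached an FPKM of 1 in t0 libraries only. These calls were fragile. Leaving out each library in turn gave 0 to 68 higher and 0 to 26 lower loci. Without library 5 there were 68 and 26, without library 2, 4 or 6 there were 0 and 0, without library 8 there were 0 and 3, without library 9 there were 0 and 1, without library 3 there were 0 and 7, without library 1 there was 1 each way, and without library 7 there were 1 and 5. With quantile normalization the counts were 0 and 9, and with median-ratio scaling 0 and 7. At an unadjusted p under 0.05 there were 62 higher and 45 lower loci, against 5.34% and 1.27% of all identifiers (4.85% and 3.52% of the loci). The median log2 FC was -0.09 over the loci and 0.02 over all identifiers.

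The largest fall at 20 min was that of MSTRG.26312 (chr13:33755943-33756290, minus strand), a single exon of 348 bases. It had 56.5, 23.6 and 21.1 FPKM at t0, 0.132, 0.0340 and 0.0953 at t20, and 0.867, 33.6 and 2.62 at t40. The t20 libraries held at most 1 fragment each, against 191 to 457 at t0, and only library 8 was back in the t0 range. The log2 FC at 20 min was -4.86 (SE 0.87, limma adjusted p = 0.0402). This call ended on omission of any 1 of 6 libraries (limma adjusted p from 0.0726 to 0.141). LOC100817021, 2136 bases away in divergent orientation, had a like pattern (r 0.94), with 181, 104 and 54.1 FPKM at t0 and 12.4, 18.9 and 14.6 at t20. The gene's log2 FC of -2.66 did not pass adjustment (limma adjusted p = 0.0887).

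MSTRG.33443 was already down at 20 min (log2 FC -3.95, limma adjusted p = 0.042). That call ended on omission of any 1 of 7 libraries (limma adjusted p from 0.0598 to 0.149). The log2 FC at 20 min was -2.50 for MSTRG.27687 and -2.06 for MSTRG.1309. MSTRG.27710 (chr14:2589323-2594270, minus strand) had 10.7, 14.0 and 29.1 FPKM at t0, 1.91, 4.22 and 2.51 at t20 and 3.92, 5.10 and 6.86 at t40 (log2 FC at 20 min -2.21, SE 0.36, limma adjusted p = 0.0336). Its 20 min call ended on omission of any 1 of 8 libraries (limma adjusted p from 0.0512 to 0.127). MSTRG.16245 (chr8:39637848-39638655, minus strand) had 5.10, 2.97 and 1.32 FPKM at t0, 0, 0.146 and 0 at t20 and 0, 0.203 and 0.0940 at t40 (log2 FC at 20 min -1.87, SE 0.30), and it too reached an FPKM of 1 in t0 libraries only. The t20 libraries lay below every t0 library in each.

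The rises at 20 min were smaller. MSTRG.14921 (chr8:8228352-8228894, plus strand) had 1.34, 1.66 and 2.91 FPKM at t0, 13.4, 6.29 and 29.3 at t20 and 11.1, 18.0 and 16.1 at t40 (log2 FC at 20 min 2.34, SE 0.44, limma adjusted p = 0.0441). MSTRG.387 (chr1:3804864-3805790, plus strand) was called at both times, starting at 6.91, 9.44 and 7.02 FPKM (t0) and reaching 60.7, 21.5 and 25.7 (t20) and 101, 76.5 and 74.6 (t40). Its log2 FC was 1.94 at 20 min (SE 0.34, limma adjusted p = 0.0395) and 3.27 at 40 min (SE 0.34, limma adjusted p = 0.000893). The nearest gene to MSTRG.387, LOC100789448 on the other strand, stayed between 3.56 and 5.97 FPKM.

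MSTRG.3407 (chr2:42864668-42865625, plus strand) had 0.666, 0.426 and 0.140 FPKM at t0, 6.10, 1.93 and 6.59 at t20 and 7.19, 7.19 and 12.2 at t40. It lay 1182 bases downstream of LOC100784160 on the same strand, which had an r of -0.43 with it and a log2 FC of -0.34 at 20 min (limma adjusted p = 0.664). MSTRG.34210 (chr17:38499914-38500902, plus strand) lay 177 bases downstream of LOC100815312 on the same strand and had 1.04, 0.477 and 0.964 FPKM at t0, 4.99, 2.41 and 4.25 at t20 and 5.07, 3.12 and 4.18 at t40. That gene had 23.4, 16.5 and 25.1 FPKM at t0 and 117, 46.0 and 84.2 at t20. Here locus and gene moved together (r 0.98), with log2 FCs at 20 min of 1.39 (limma adjusted p = 0.0411) and 1.80 (limma adjusted p = 0.0395). The 20 min call of MSTRG.34210 ended on omission of any 1 of 8 libraries (limma adjusted p from 0.0574 to 0.152).

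MSTRG.8607 (chr5:27651214-27656669, plus strand) was spliced, with 5 exons, and lay 20808 bases from the nearest gene. It had 0.436, 0.766 and 0.471 FPKM at t0, 5.12, 5.85 and 2.51 at t20 and 6.48, 3.58 and 2.55 at t40. MSTRG.6402 (chr4:4413440-4415318, minus strand) lay opposite the protein-coding gene LOC100784202 and had 0.206, 0.0229 and 0.599 FPKM at t0, 3.31, 1.42 and 3.38 at t20 and 1.22, 0.653 and 0.868 at t40. Its t20 libraries were above all others, and the gene opposite stayed between 1.09 and 2.35 FPKM. The log2 FC at 20 min was 1.77 for MSTRG.8607 and 1.51 for MSTRG.6402. MSTRG.8607, MSTRG.6402 and MSTRG.3407 reached an FPKM of 1 in treated libraries only, which favours a called rise, so their values are given as a description. Of the 6 rises named at 20 min, MSTRG.6402 was the one not called at 40 min (log2 FC 0.60, limma adjusted p = 0.127), and its difference between 20 and 40 min was -0.91 (limma adjusted p = 0.129).

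Between 20 and 40 min, 29 loci rose (2.27%, against 1.30% of all identifiers) and 0 fell (against 0.058%). At an unadjusted p under 0.05 the counts in limma were 99 and 6 (7.74% and 0.469%, against 4.51% and 0.668% of all identifiers). Among the 352 loci at an FPKM of at least 1 in every library, limma called 0 higher and 0 lower, against 0.0958% and 0.00383% of all identifiers under that filter, with 27 and 2 at an unadjusted p under 0.05. The 29 depended on single libraries, with 0 left without library 8 or 9, 8 without library 6, 15 without library 5 and 53 without library 4. MSTRG.22008 (chr11:10155390-10155887, plus strand) had 0, 0.590 and 0.104 FPKM at t0, 1.18, 0.280 and 0 at t20 and 7.83, 4.84 and 9.81 at t40. This locus reached an FPKM of 1 in treated libraries only, a route that favours a called rise, so its values are given as a description. It lay 556 bases downstream of LOC100783677 on the same strand, which had 0.780 to 1.46 FPKM at t0, 23.1, 1.20 and 3.55 FPKM at t20 and 11.2 to 22.6 FPKM at t40. Library 4 thus read higher for the gene than any t40 library, and from 20 to 40 min the gene was not called (log2 FC 1.40, limma adjusted p = 0.321). MSTRG.22284 (chr11:16486180-16486564, minus strand) lay 635 bases downstream of AGO5, an Argonaute gene whose family binds small RNAs, on the same strand. It had 0.763, 1.02 and 0.209 FPKM at t0, 1.70, 1.29 and 0.971 at t20 and 6.24, 8.74 and 12.6 at t40. AGO5 ranged over 16.0 to 24.9 FPKM (t0), 24.7 to 40.0 (t20) and 60.8 to 67.4 (t40), and its r to the locus was 0.92. This r was 0.45 with the mean of each time taken off.

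MSTRG.35170 (chr18:9688610-9689059, minus strand) had 1.43, 2.00 and 0.656 FPKM at t0, 2.64, 2.64 and 2.06 at t20 and 8.89, 17.1 and 14.0 at t40. Its nearest gene lay 9832 bases away and was listed at 0 throughout. MSTRG.8640 (chr5:28746436-28747332, minus strand) had 5.50, 1.10 and 1.14 FPKM at t0, 0.409, 0.581 and 0.367 at t20 and 2.89, 12.3 and 8.89 at t40. For MSTRG.8640 the t20 libraries were the lowest, and its t40 and t0 libraries overlapped. The log2 FC of t40 against t20 was 2.55 for MSTRG.22008. It was 2.10, 2.02 and 2.47 for MSTRG.22284, MSTRG.35170 and MSTRG.8640 (limma adjusted p from 0.0146 to 0.0473).

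Other loci stayed level. An FPKM of at least 10 in every library was found for 47 loci. The steadiest of these was MSTRG.22562 (chr11:33618463-33620200, plus strand, 2 exons), at 15.1, 15 and 17.9 FPKM at t0, 13.8, 12.1 and 15.6 at t20 and 11.9, 14.0 and 14.1 at t40. Over only 80 bases it overlapped, on the other strand, LOC100810018, which had 3.21 to 9.21 FPKM. MSTRG.28266 (chr14:10958584-10959559, minus strand) ran from 10.2 to 15.5 FPKM. MSTRG.16675 (chr8:45873784-45874986, plus strand, 4 exons) was both steady and abundant, at 336, 291 and 263 FPKM at t0, 275, 204 and 254 at t20 and 244, 311 and 279 at t40. LOC102667868, 2085 bases away on the other strand, rose over the same libraries from 0.498 to 1.09 FPKM at t0 to 13.9 to 27.2 at t40 (log2 FC 3.70, limma adjusted p = 0.00309). MSTRG.30887 (chr15:52943852-52991022, minus strand) ran from 40.1 to 66.9 FPKM. These 4 were chosen for their small range, and none was called in any comparison.

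Values are given next for the 4 loci with the most exons. MSTRG.11572 (chr6:38217506-38233569, minus strand) had 21 exons and 2588 exonic bases, lay 14426 bases from the nearest gene and ran from 6.31 to 10.3 FPKM. MSTRG.4311 (chr3:3772665-3787979, plus strand) had 21 exons, 6986 bases and 10 transcripts, and overlapped LOC102668741, annotated as a pseudogene. It ran from 4.51 to 9.25 FPKM. MSTRG.22152 (chr11:11689391-11696536, minus strand) had 19 exons and overlapped the pseudogene LOC113000923, at 1.39 to 3.27 FPKM. MSTRG.594 (chr1:13441296-13453156, plus strand) had 16 exons and 16 transcripts, at 5.58 to 11.8 FPKM. The log2 FC at 40 min lay between 0.19 and 0.28 in all 4, and no comparison called them. In 6 loci the overlapped gene was a pseudogene without a strand in the sources used here.

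Long spans were uncommon. In all, 25 loci spanned over 10000 bases, up to 74898 bases, and 11 of them had 2 exons. In 17 of the 25 the span held at least 1 annotated gene whole, and in 11 a gene on the same strand. A mean FPKM of at least 10 was found in 7 of the 25 (28.0%), against 7.97% of all loci. The FPKM divides by exonic length and says nothing of the RNA between the exons.

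By position, 877 loci (68.6%) overlapped no annotated gene, 334 (26.1%) overlapped a gene on the other strand, 61 (4.77%) overlapped a gene on the same strand, and 1 lay on a sequence without an annotated gene. Of the 334 antisense loci, 169 lay within the gene's span, and of the 61 on the same strand 44 did. At 40 min, 123 of the 877 loci between genes rose (14.0%) and 38 fell (4.33%), and 28 of the 334 antisense loci rose (8.38%) and 12 fell (3.59%), beside 10.5% and 3.49% of all identifiers. Whether these shares differ beyond sampling was not tested. The median length of antisense loci was 1012.5 bases, against 740 bases between genes.

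Among the 877 loci between genes, the gap to the nearest gene had a median of 2122 bases (quartiles 752 and 5068, range 13 to 121263). It was at most 500 bases for 157 loci, at most 1000 for 263 and over 10000 for 93. More loci lay downstream of that gene (549) than upstream (326). Within 1000 bases, 136 lay downstream on the same strand, 73 downstream on the other strand, 30 upstream on the same strand and 23 upstream on the other strand. Downstream on the same strand was the most frequent of these orientations. Of those 136 loci, 10 rose (7.35%) and 3 fell (2.21%) at 40 min, beside 10.5% and 3.49% of all identifiers.

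**Figure D4:**
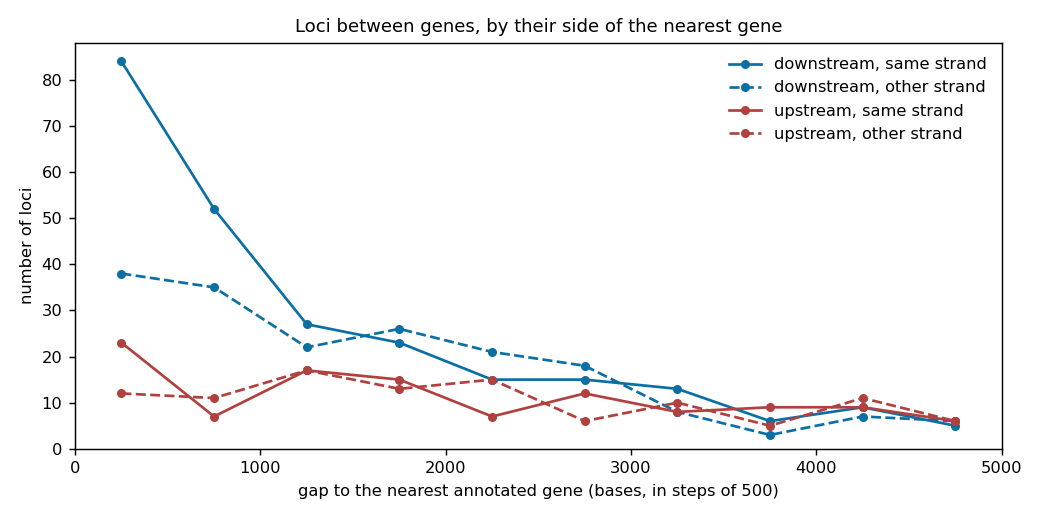
Number of loci between genes by gap to the nearest annotated gene, in steps of 500 bases, for the side and strand relative to that gene. Loci downstream on the same strand outnumber the other orientations within 1000 bases, where they make up 136 of 263 loci, and the orientations draw close to each other at larger gaps.

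Small RNA genes were a recurring neighbour. On the same strand, 9 loci lay within 1000 bases of a microRNA gene without touching it, and all 9 were downstream of the hairpin, at gaps of 21 to 851 bases. MicroRNA precursors are cut from longer polyadenylated primary transcripts by Dicer-like enzymes, and the cut leaves a 3′ part. Whether these loci are such parts was not tested. The genes were MIR156Z, MIR159B, MIR159E, MIR160E, MIR162B, MIR171U, MIR397B, MIR408A and MIR5671B. For the loci near MIR408A and MIR5671B another annotated gene lay nearer, and the locus near MIR171U overlapped another gene. In Arabidopsis, miR156 targets SPL factors of phase change, miR159 targets GAMYB-like factors, miR160 targets auxin response factors and miR162 targets DCL1 itself. A further locus, MSTRG.17895 (chr9:41164763-41166203, plus strand, 2 exons), contained MIR159D. For small nucleolar RNAs, which guide the modification of ribosomal RNA, 13 loci lay downstream on the same strand (gaps of 58 to 921 bases), 1 lay upstream and 2 overlapped.

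MSTRG.12569 (chr7:5407280-5408060, minus strand) began 21 bases past MIR156Z and had 7.52, 7.64 and 2.60 FPKM at t0, 2.12, 2.29 and 2.55 at t20 and 8.65, 17.0 and 8.35 at t40. It lay lowest at t20 and rose from 20 to 40 min (log2 FC 1.83, SE 0.36, limma adjusted p = 0.0425). The call was lost without library 1, 2, 5, 6, 7, 8 or 9 (adjusted p from 0.0547 to 0.156). MIR156Z itself had 0 to 2.80 FPKM and was called higher in the same comparison (log2 FC 1.32, limma adjusted p = 0.0379). MSTRG.12567 (chr7:5398910-5400034, minus strand), 180 bases past MIR159B on the same chromosome, had 5.70, 5.42 and 1.07 FPKM at t0, 1.87, 1.20 and 2.30 at t20 and 10.3, 13.4 and 6.16 at t40. The pattern was alike, but its log2 FC of 1.93 from 20 to 40 min did not pass (limma adjusted p = 0.062). MSTRG.14142 (chr8:922952-924620, minus strand), 553 bases past MIR171U, had 2.03, 1.84 and 2.09 FPKM at t0 and 0.109 to 0.986 in all treated libraries. Over 988 bases it overlapped the protein-coding gene LOC100805328 on the other strand. The log2 FC of MSTRG.14142 was -1.09 at 20 min and -0.85 at 40 min, and neither was called. It reached an FPKM of 1 in t0 libraries only, a route that favours a fall, so its values are given as a description. The other 7 loci near or over a microRNA gene were called in no comparison.

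Levels of loci and their nearest genes were set side by side for the 861 pairs in which both passed the filter. The median Pearson r over 9 libraries was 0.21, against 0.157 over 31437 pairs of a named gene and its nearest gene. For loci within 1000 bases on the same strand it was 0.307 (named genes 0.334), for antisense loci 0.247 (named genes in antisense overlap 0.110), and for loci within 1000 bases on the other strand 0.0403 (named genes 0.140). These correlations share libraries and times and carry no test. The median level of a locus was 0.249 times that of its nearest gene, and 0.165 times for antisense loci, of which 19 of 234 exceeded the gene opposite.

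Calls at 40 min were shared most often on the same strand. Of 115 upregulated loci with a tested nearest gene, 37 had an upregulated nearest gene (32.2%, against 19.0% for named genes that rose) and 2 a downregulated one. Within 1000 bases on the same strand it was 7 of 13 loci (53.8%, named genes 15.3%), and beyond 1000 bases 17 of 38 (44.7%, named genes 22.7%). Beyond 1000 bases on the other strand it was 4 of 30 (13.3%, named genes 15.3%), and within 1000 bases 0 of 8 (named genes 14.2%). Of the upregulated antisense loci 7 of 21 lay opposite an upregulated gene (33.3%, named genes 18.2%). For overlap on the same strand it was 2 of 5 (40%, named genes 60%). These shares rest on few loci and were not tested. Of 36 downregulated loci, 5 had a downregulated nearest gene (13.9%, against 6.78% for named genes that fell). Most changed loci thus had a nearest gene that was not called in their direction.

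**Figure D5:**
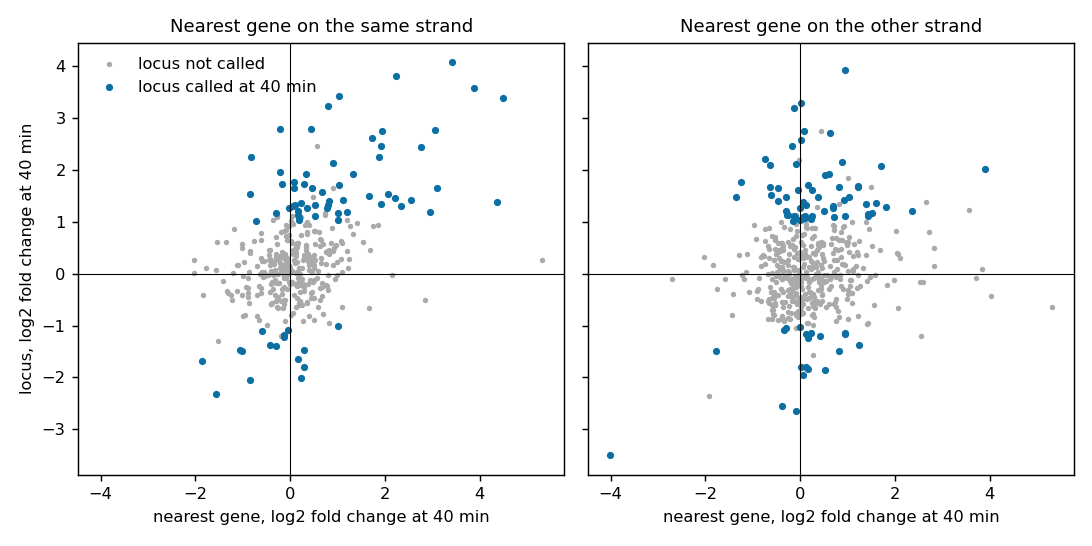
Log2 FC at 40 min of each locus (vertical) against that of its nearest annotated gene (horizontal), for the pairs in which both were tested and the gene has a strand; blue points are loci called at 40 min. On the same strand many called loci lie to the right of 0 together with their gene, and on the other strand most called loci lie near 0 on the horizontal axis, with MSTRG.33443 and LOC100794904 (log2 FC -3.49 and -4.00) at the lower left.

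Few of the loci neighboured each other closely. In 16 cases a pair of the 1279 loci lay within 1000 bases of each other on the same strand (32 loci), and the median r within pairs was 0.33.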

How the data were processed

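The 9 RNA-seq libraries were made from 2 cm root ends. According to the labels and methods, the authors trimmed reads with Trimmomatic 0.32, mapped them with HISAT2 to Glycine_max_v4.0, assembled them with StringTie and exported FPKM with Ballgown, and deposited 1 table of FPKM per transcript (119600 rows). The submitters' processing notes also name bcl2fastq 2.20. Other versions and whether strand was used in mapping are not given in the sources used here. Columns name the time and a library number but no replicate, so libraries are numbered 1 to 9; 9 further columns, of coverage, were not used.

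FPKM were summed by identifier. Identifiers with at least 1 FPKM in at least 3 libraries (32763) entered limma 3.58.1 (R 4.3.3) on log2(FPKM + 1), eBayes with a variance trend, in which fold changes of low loci are understated. All 9 libraries shared 1 fit. Calls required a Benjamini-Hochberg adjusted p under 0.05 over all identifiers and a log2 FC of at least 1 in size. The fit was also run on simulated data with changes planted only in better expressed identifiers, so that run does not check it for low loci. Adding 1 to FPKM was the main choice; alternatives were pseudocounts of 0.1 and 0.5, stricter and looser filters, 2 scalings, other thresholds, transcripts in place of identifiers, and the omission of each library.

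Fragments per library came from the steps of FPKM times length in single-exon transcripts. Within 0.05 of a whole number of fragments were 18.1 to 44.2% of the single-exon loci's values above 0, depending on the library, so the steps give depth but not whole counts for every locus. Limits for values of 0 used 3 fragments and cover counting error only.

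Genes were placed by the RefSeq annotation of the same assembly (59048 genes), with strands taken by symbol from the deposited table (58971 matched). Where genes overlap, reads of both cannot always be told apart. Marker symbols were found for 2 of 2 root, 4 of 5 nodule and 3 of 6 leaf genes. The 42 loci chosen by rule are the 6 of highest mean, the 6 largest called rises and falls at 20 and at 40 min and up to 4 between them with no overlap between groups, the 4 highest at 40 min among those at 0 in t0, the 4 steadiest at 10 FPKM or more, and the 4 with most exons. Loci near microRNA genes and pairs of loci were named after their values were seen. Loci and lists were chosen with earlier results of these data known. Sequence features were not analysed here.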

Additional observations from a re-analysis of the deposited data

Results flagged for a closer look

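The effect at 40 min differed from that at 20 min, by the limma test of t40 against t20, for 29 loci (2.27%, against 1.30% of all identifiers), all of them higher at 40 min. Without library 8 or 9 the count was 0, and it was 0 among the 352 loci at an FPKM of at least 1 in every library (limma, with 27 of them higher at an unadjusted p under 0.05). Named by rule among them were MSTRG.22008 (log2 FC of t40 against t20 2.55), MSTRG.8640 (2.47), MSTRG.22284 (2.10), MSTRG.35170 (2.02) and the abundant MSTRG.20341 (1.62, limma adjusted p = 0.0481). In all 5 the t40 libraries lay above the t20 libraries. MSTRG.22008 reached an FPKM of 1 in treated libraries only, which favours a called rise, so its value is a description. MSTRG.8640 and MSTRG.20341 kept the call in 2 of the 9 fits that left out a library, MSTRG.35170 in 6, and MSTRG.22008 and MSTRG.22284 in 7.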

How the results depend on the processing

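No paired analysis was possible because the columns carry a library number and a time but no replicate number, and the replicates came from separate plants. Counts are of higher and lower loci. At 20 min (7 and 10) they were 37 higher with a pseudocount of 0.1, 16 higher with 0.5, 0 and 0 without a filter or with single transcripts, 1 and 1 with an FPKM of at least 1 in all 9 libraries, 0 higher with quantile normalization or median-ratio scaling, 0 and 1 with only the groups compared, 62 and 45 at unadjusted p, and 25 and 23 at unadjusted p with a log2 FC of 1.5. At 40 min (157 and 52) they were 37 and 23 in all 9 libraries, 80 and 21 at unadjusted p with a log2 FC of 1.5, 89 lower with a pseudocount of 0.1 and 106 lower with quantile normalization. From 20 to 40 min (29 and 0) they were 1 higher with a pseudocount of 0.1, 13 without a filter, 0 in all 9 libraries, 16 with a mean of at least 1, 15 with only the groups compared, 0 with single transcripts, 99 and 6 at unadjusted p, and 1 lower at unadjusted p with a log2 FC of 1.5. Leaving out a library gave 0 to 68 and 0 to 26 at 20 min, 122 to 164 and 32 to 55 at 40 min, and 0 to 53 and 0 to 6 from 20 to 40 min. Stricter filters and single transcripts test other sets. For other shifts the cause was not tested.

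Against the named rows of the table, 0 loci overlapped a gene without strand, in place of 6. Within 500 bases of a gene were 157 loci and within 2000 bases 424, in place of 263 within 1000. All unnamed identifiers held 1.98% of the FPKM at t40, in place of 1.69%. No fold change of a named locus that was called changed sign under any alternative run. The lowest depth was at t40, where low FPKM values are least certain.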
